A study of Homo sapiens with 9 samples.

Results

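The MAP kinase phosphatases of the DUSP family are 10 genes, DUSP1, DUSP2, DUSP4, DUSP5, DUSP6, DUSP7, DUSP8, DUSP9, DUSP10 and DUSP16, out of 36618 gene names on the array. Their members were taken as every non-control probe that carries such a gene name in the scanner files, which gave 12 probes for the 10 genes. The samples were 9 one-colour Agilent arrays of HEK293 cells, a human line derived from embryonic kidney, that stably express HA-tagged MEK1. MEK1, encoded by MAP2K1, is the kinase that phosphorylates and activates ERK. There were 3 arrays each of cells expressing wild-type MEK1 (WT control cells), MEK1(F53S), a substitution found in RASopathies, and MEK1(K57N), a substitution found in cancers. No loss of the cells' own MEK1 is described, and the cells were selected with puromycin after plasmid transfection, and were harvested at steady state in serum, without added growth factor. The sources used here name 1 stable line for each allele and no independent lines, so differences between the lines other than the MEK1 allele cannot be told apart from its effect, and p-values measure the spread between the 3 experiments.

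MAP kinase phosphatases remove phosphate from both the threonine and the tyrosine of the MAP kinase activation loop. The family has a nuclear group (DUSP1, DUSP2, DUSP4, DUSP5), a cytoplasmic group that prefers ERK (DUSP6, DUSP7, DUSP9) and a group that prefers the stress kinases JNK and p38 (DUSP8, DUSP10, DUSP16). Several of them are themselves induced by ERK signaling and thereby act as negative feedback on it.

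The K57N cells held more RNA of DUSP4, DUSP5 and DUSP6 than WT control cells, with differences of 2.19, 4.49 and 6.32 on the log2 scale. In RNA of whole cultures, more cells expressing a gene and more RNA per cell cannot be told apart. DUSP1 and DUSP2 were higher on all 3 K57N arrays as well, and passed the test once the slide of each array was taken into account. None of the stress-kinase group was called in any comparison, nor was DUSP9. In F53S cells the values of DUSP2, DUSP4, DUSP5 and DUSP6 lay between those of WT and K57N cells on every array, but no member passed the test against WT.

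The sequences just upstream of the start were examined because the nuclear members and DUSP6 were all higher on the K57N arrays than on the WT arrays. RefSeq promoters (GRCh38.p14) were listed for 8 of the 10 members, in 10 promoters, since DUSP9 and DUSP10 have a pair each. DUSP4 and DUSP5 had no entry. Each window below holds the 250 bases before the start, 5′ to 3′ on the strand of the gene. Capitals mark letters matching a searched motif on either strand, and the set shows the member with the largest difference and the nuclear members DUSP1 and DUSP2.

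DUSP6, chr12:89352502-89352751, minus strand: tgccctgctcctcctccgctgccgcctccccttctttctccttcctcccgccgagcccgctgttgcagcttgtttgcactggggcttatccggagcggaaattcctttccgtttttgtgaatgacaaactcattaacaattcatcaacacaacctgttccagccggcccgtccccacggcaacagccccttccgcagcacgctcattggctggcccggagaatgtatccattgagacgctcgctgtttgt
DUSP1, chr5:172771196-172771445, minus strand: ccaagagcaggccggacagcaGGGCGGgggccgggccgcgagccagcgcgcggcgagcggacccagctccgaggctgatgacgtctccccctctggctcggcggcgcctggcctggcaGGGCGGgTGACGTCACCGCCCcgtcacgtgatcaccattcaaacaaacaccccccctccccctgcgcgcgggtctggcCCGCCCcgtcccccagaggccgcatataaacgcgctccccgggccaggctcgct
DUSP2, chr2:96145441-96145690, minus strand: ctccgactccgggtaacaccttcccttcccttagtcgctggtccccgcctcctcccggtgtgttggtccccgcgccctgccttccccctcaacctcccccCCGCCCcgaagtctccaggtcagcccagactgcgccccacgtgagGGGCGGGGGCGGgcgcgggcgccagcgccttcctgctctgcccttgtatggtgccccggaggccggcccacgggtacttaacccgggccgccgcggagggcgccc

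The letters searched were CCGGAAGT (ETS), TGANTCA (AP-1), TGACGTCA (CRE), GGGCGG (SP1) and the CArG box of serum response factor by its name. The DUSP6 window held none of the 5. The DUSP1 window held 1 CRE match, 125 to 118 bases before the start, flanked by an SP1 match on each side, and 4 SP1 matches in all. The DUSP2 window held 3 SP1 matches and no other. CRE letters stood in 1.65% of the 35114 promoters in the table and in 2 of the 10 member promoters, those of DUSP1 and DUSP8. SP1 letters stood in 42.6% of all promoters and in 9 of the 10. No member promoter held the ETS, AP-1 or CArG letters, which stood in 3.42%, 6.57% and 1.16% of all promoters. A match here is a match of letters in this window, and its use in these cells was not measured.

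Values below are log2 signals relative to the 75th percentile of the same array, so 0 is the level of the 75th percentile. They compare lines for 1 probe and do not rank 1 gene against another. A difference was called where the adjusted p of limma was under 0.05 and the change over 2-fold, among the 25400 probes above background on all 3 arrays of a line. DUSP7 missed that filter, so 9 of the 10 members were tested. Replicate 1 of every line was hybridised on 1 slide and replicates 2 and 3 on another. The slide 1 arrays were dimmer, with 75th percentile signals of 245 to 376.2 against 695 to 821, and had 23714 to 26113 probes above background against 27115 to 29324. Arrays of different lines on the same slide deviated together, so a fit with the slide as a term is given where it changes a call. Of 8 genes typical of HEK293 cells, 6 (NEFL, PAX2, LHX1, KRT8, KRT18 and VIM) were above background on all arrays, while ALB, APOA2, DCN, COL1A2 and MLANA, which define hepatocytes, fibroblasts and melanocytes, were above it on none. The fibroblast gene LUM was above it on 6 of the 9 arrays and the leukocyte gene CD3E on 7. The leukocyte gene PTPRC and the melanocyte gene PMEL each had a probe above background on every array. The MAP2K1 probe may lie outside the HA-tagged transgene, so its signal may come from the endogenous transcript alone or from both transcripts. The MAP2K1 probe read 2.36, 2.34 and 2.42 in WT, 2.50, 2.39 and 2.46 in F53S and 2.81 to 2.92 in K57N cells. The K57N arrays were thus the highest for it, by 0.48 over WT, an increase seen on each replicate number. It was not called (adjusted p = 0.135 by limma). With slide in the fit the adjusted p was 0.00758, and with the replicate block 0.0188, at a change under 2-fold. Its part in the results below was not tested.

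**Figure D1:**
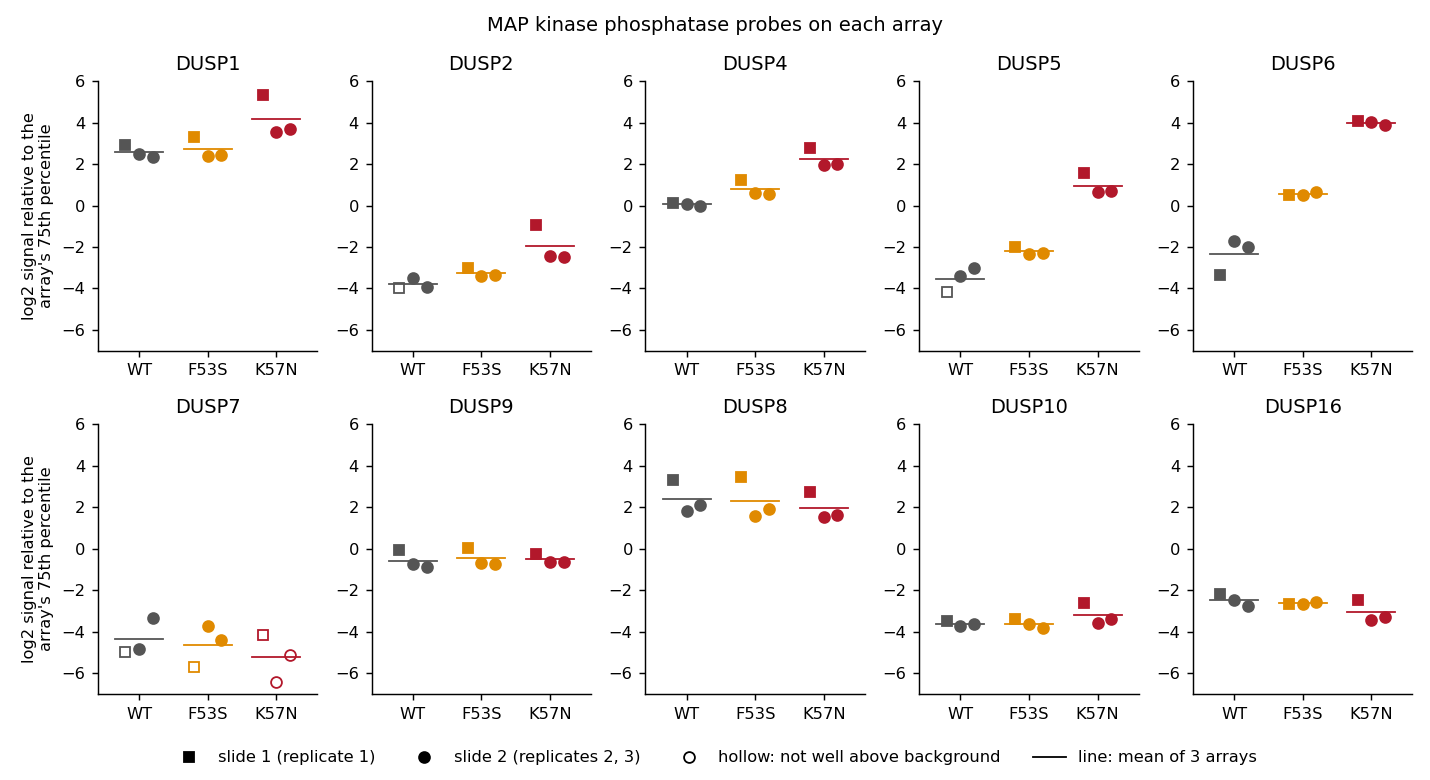
Log2 signal of the brightest probe of each phosphatase relative to the array's 75th percentile (vertical axis) in the WT, F53S and K57N lines (horizontal axis); each symbol is 1 array, squares are slide 1, circles slide 2, hollow symbols are not well above background and lines are means of 3 arrays. DUSP6 climbs from a mean of -2.35 in WT to 0.55 in F53S and 3.98 in K57N cells, whereas DUSP9, DUSP8, DUSP10 and DUSP16 overlap between the lines.

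DUSP6, the cytoplasmic phosphatase specific for ERK and a textbook feedback target of the ERK pathway, differed the most of all members. Its probe (chr12:89742144-89742203, hg19) read -3.33, -1.70 and -2.01 in WT cells, 0.51, 0.49 and 0.65 in F53S cells and 4.06, 4.01 and 3.86 in K57N cells. The 3 lines did not overlap, and the F53S and K57N arrays spread far less (SD 0.08 and 0.10, n = 3 each) than the WT arrays (SD 0.87, n = 3), of which the slide 1 array was the lowest. The K57N difference from WT was 6.32 (SE 0.37, 80.1-fold, adjusted p = 2.78e-04 by limma), the third largest increase of the 25400 probes tested. With a normexp background correction it was 5.48. From F53S, K57N cells differed by 3.43 (SE 0.37, adjusted p = 0.00537 by limma). The F53S difference from WT was 2.90 (95% confidence interval 2.04 to 3.75), and it did not pass (adjusted p = 0.352, or 0.0835 with slide, limma). It was called without WT replicate 1, at 2.40 (adjusted p = 0.0278), and with normexp, at 2.16 (adjusted p = 0.00945).

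The other cytoplasmic members did not follow DUSP6. DUSP9 (probe chrX:152915952-152916011), which also acts on ERK, read -0.08, -0.75 and -0.89 in WT, 0.01, -0.67 and -0.74 in F53S and -0.24, -0.66 and -0.64 in K57N cells. The lines overlapped, and on each line the slide 1 array was the highest. K57N and WT cells differed by 0.06 with a 95% confidence interval of -0.60 to 0.72, which with slide in the fit narrowed to -0.18 to 0.30.

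DUSP7, the third ERK phosphatase of this group, was at the edge of detection. Its probe aligns across a gap in the genome (chr3:52088352-52089886) and was above background on 2 WT, 2 F53S and none of the K57N arrays. It read -4.97, -4.82 and -3.34 in WT, -5.73, -3.74 and -4.42 in F53S and -4.18, -6.42 and -5.10 in K57N cells, with the lines overlapping. Without the filter on dim probes, the difference between K57N and WT did not pass (adjusted p = 1, limma), and no fold is given for it.

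The nuclear group held the other changes. DUSP5, a nuclear phosphatase specific for ERK, had its probe at chr10:112270900-112270959. It read -4.15, -3.39 and -3.03 in WT, -2.00, -2.32 and -2.29 in F53S and 1.55, 0.63 and 0.72 in K57N cells, with WT replicate 1 not above background. The 3 lines did not overlap. K57N exceeded WT by 4.49 (SE 0.34, 22.4-fold, adjusted p = 5.28e-04 by limma), or by 3.26 after normexp background correction, and F53S by 3.17 (adjusted p = 0.00476). F53S minus WT was 1.32 (interval 0.54 to 2.09) and did not pass (adjusted p = 1, limma), and it was 0.65 with normexp.

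DUSP4, a nuclear phosphatase that acts on ERK and on stress kinases, had a probe at chr8:29194382-29194441. It read 0.12, 0.06 and -0.01 in WT, 1.22, 0.58 and 0.57 in F53S and 2.79, 1.97 and 1.98 in K57N cells. The lines again did not overlap, and WT varied least (SD 0.06, n = 3). K57N exceeded WT by 2.19 (SE 0.27, 4.57-fold, adjusted p = 0.0052 by limma). K57N exceeded F53S by 1.46 (adjusted p = 0.0465 by limma), a call that was lost on leaving out any array but F53S replicate 1 (adjusted p 0.0635 to 0.191). It was also lost with no filter on dim probes (0.227), with the all-array filter (0.0559), with only the 2 lines in the fit (0.151) and by the methods' t-test (0.294), and it held with slide (0.00134). F53S minus WT was 0.73 (interval 0.11 to 1.35) and did not pass.

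DUSP1, the nuclear phosphatase first described as an immediate early gene product, was measured by 10 spots of 1 probe (chr5:172195296-172195355). It read 2.91, 2.49 and 2.36 in WT, 3.31, 2.37 and 2.45 in F53S and 5.31, 3.55 and 3.69 in K57N cells. The K57N arrays lay above all others, the WT and F53S arrays overlapped, and slide 1 was the highest array of every line. The K57N difference was 1.60 from WT (interval 0.51 to 2.69) and 1.47 from F53S. Neither passed (adjusted p = 0.155 and 0.28 by limma), but both were called with slide in the fit (0.00348 and 0.00725) and with replicate number as the block (0.00873 and 0.0168). On replicate number 1 K57N exceeded WT by 2.40, on 2 by 1.06 and on 3 by 1.33, and without K57N replicate 1 the difference was 1.03 from WT and 0.91 from F53S. F53S minus WT was 0.12 (interval -0.96 to 1.21).

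DUSP2, a nuclear phosphatase known from activated lymphocytes, had a dim probe (chr2:96809903-96809962). It read -3.96, -3.52 and -3.94 in WT, -3.02, -3.39 and -3.34 in F53S and -0.96, -2.45 and -2.50 in K57N cells, with WT replicate 1 not above background. Neither mutant line overlapped WT. K57N minus WT was 1.83 (interval 0.93 to 2.73), just outside the threshold (adjusted p = 0.0541 by limma). It was called under 6 of 20 alternatives, among them with slide (0.00867) and with the replicate block (0.0177). Others were slide 2 alone, at 1.25 (adjusted p = 0.00844, limma), and the authors' deposited log2 values, at 1.87 (adjusted p = 0.0431, limma). The value depended on the K57N array of slide 1, without which it was 1.33 (adjusted p = 0.0341, limma), and on the background correction, since normexp gave 0.92. K57N minus F53S was 1.28, called with slide (adjusted p = 0.0423) but not with the replicate block (0.0687). It was 0.78 without K57N replicate 1 and 0.68 with normexp.

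**Figure D2:**
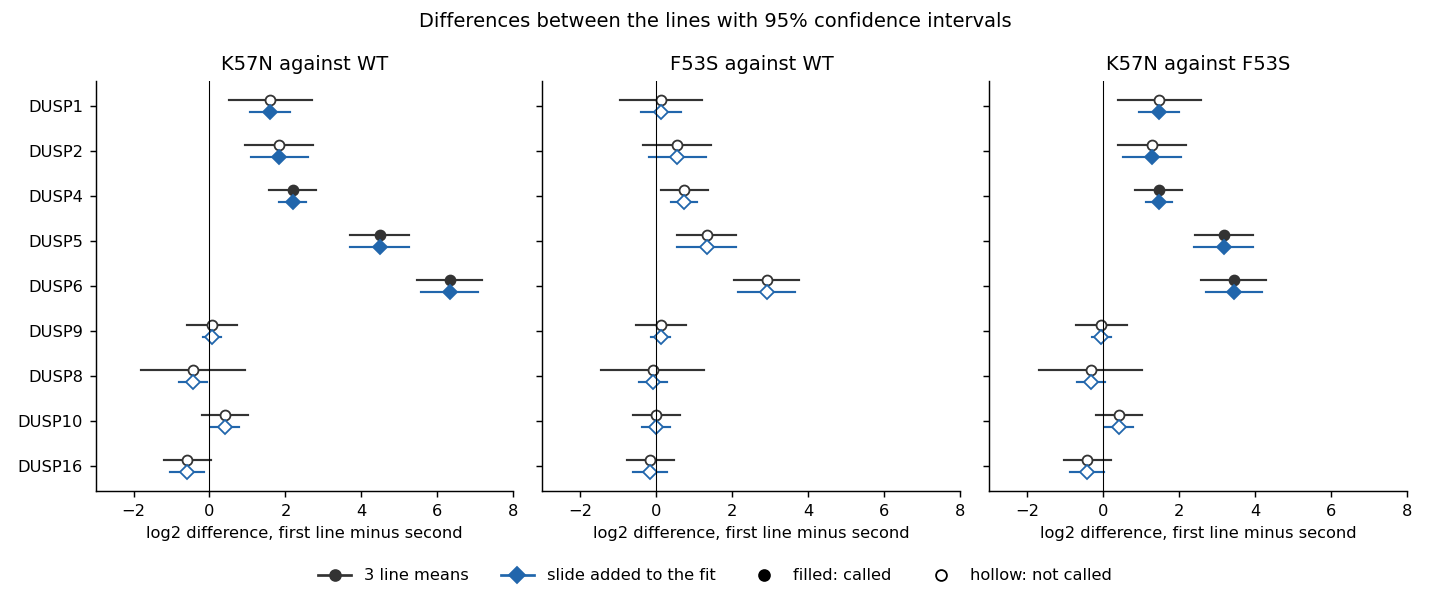
Log2 difference (horizontal axis, first line minus second) of the 9 tested members for K57N against WT, F53S against WT and K57N against F53S, with 95% confidence intervals from the limma fit on line means (circles) and with slide added (diamonds); filled symbols are called. In the K57N panels DUSP4, DUSP5 and DUSP6 are filled in both fits and DUSP1 and DUSP2 with slide, and no symbol is filled for F53S against WT.

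No member of the stress-kinase group was called. DUSP8 had 3 probes. The brightest (chr11:1575282-1575341) read 3.32, 1.80 and 2.11 in WT, 3.46, 1.56 and 1.92 in F53S and 2.76, 1.55 and 1.65 in K57N cells, so the slide 1 arrays stood above slide 2 by 1.16 to 1.72 and the lines overlapped. K57N minus WT was -0.43 (interval -1.79 to 0.93) for it and -0.55 and -0.93 for the other two probes (chr11:1579141-1579394 and chr11:1576310-1576369). The last of these was above background on 1 of the 3 K57N arrays, so its value depends on the background. With slide in the fit the brightest probe gave an interval of -0.80 to -0.06 and an adjusted p of 0.102 (limma).

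DUSP10, which acts on p38 and JNK, read -3.47, -3.73 and -3.62 in WT, -3.38, -3.63 and -3.83 in F53S and -2.61, -3.60 and -3.39 in K57N cells (probe chr1:221875773-221875832). All 3 K57N arrays were above the WT arrays of the same number, by 0.87, 0.13 and 0.24, but the lines overlapped and the difference of 0.41 (interval -0.20 to 1.02) did not pass. It was 0.12 without K57N replicate 1 and 0.13 with normexp. DUSP16, a JNK phosphatase, read -2.20, -2.46 and -2.74 in WT, -2.66, -2.66 and -2.58 in F53S and -2.45, -3.43 and -3.29 in K57N cells (probe chr12:12629370-12629429). Its K57N difference was -0.59 (interval -1.21 to 0.03, adjusted p = 0.413, or 0.0693 with slide, limma). On the arrays of slide 2 alone it was -0.76 from WT (adjusted p = 0.0154) and -0.74 from F53S (adjusted p = 0.0224, limma), both under 2-fold, and without K57N replicate 1 it was -0.89 from WT. The intervals reach a change of about 2-fold upward for DUSP10 and downward for DUSP16.

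Over the members, 3 of the 9 tested were called in K57N cells against WT, each of them higher, where 1.44% of all tested probes were called higher. These were 2 of 4 nuclear, 1 of 2 tested cytoplasmic and 0 of 3 stress-kinase members. With slide in the fit the count was 5 of 9, all 4 nuclear members and DUSP6, against 2.49% of all probes. DUSP2 and DUSP5 passed the filter on dim probes through the F53S and K57N arrays and not the WT arrays, so these counts include members let in by the lines where they are high. With only the 22067 probes above background on all arrays in the fit, without slide, 2 of 7 members (DUSP4 and DUSP6) were called higher, as were 184 probes. All 3 K57N arrays lay above all 3 WT arrays for those same 5 members, against 10.7% of probes. Against F53S cells, 3 of 9 were called higher (0.894% of all probes), 5 with slide (1.81%), and 5 had all K57N arrays above all F53S arrays (8.55%). The median difference of the 9 members from WT was 1.60 in K57N cells, where the median over all tested probes was -0.05.

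For F53S against WT, 0 of 9 members were called, as were 0% of all probes. At an unadjusted p under 0.05 and over 2-fold, DUSP5 and DUSP6 were higher, against 0.185% of probes. All 3 F53S arrays lay above all 3 WT arrays for DUSP2, DUSP4, DUSP5 and DUSP6, against 1.61% of probes, with WT replicate 1 not above background for DUSP2 and DUSP5. The comparisons of K57N and of F53S with WT share the WT arrays, so their values are given side by side: 6.32 and 2.90 for DUSP6, 4.49 and 1.32 for DUSP5, 2.19 and 0.73 for DUSP4, 1.83 and 0.55 for DUSP2, and 1.60 and 0.12 for DUSP1. In order of level, WT and F53S did not differ by the test for any of the 9 members tested, and for DUSP4, DUSP5 and DUSP6 K57N stood apart from both.

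The neighbouring genes of the pathway moved in part. Of the Sprouty and SPRED genes, which encode feedback inhibitors acting upstream in the same cascade, 3 of 6 tested (7 on the array) were called in K57N against WT cells, each higher, and 4 with slide, where 1.44% and 2.49% of all tested probes were called higher. SPRY4 read -4.93, -3.69 and -3.62 in WT, -1.33, -1.43 and -1.16 in F53S and 0.27, 0.23 and 0.65 in K57N cells, a difference from WT of 4.46 (adjusted p = 5.28e-04, limma). This probe was above background on 8 of the 9 arrays, so the difference depends on the background. Its second probe, also above background on 8, differed by 0.22 and was not called. SPRY2 differed by 2.26 (adjusted p = 5.38e-04) and SPRED1 by 1.29 (adjusted p = 0.0331), the latter lost on leaving out any array but F53S replicate 1 (adjusted p up to 0.141). SPRED2 differed by 1.25 and was called with slide (adjusted p = 0.00397). Against F53S, SPRY2 was higher by 1.27 (adjusted p = 0.0126), a call lost without F53S or K57N replicate 2 or 3 (adjusted p up to 0.0806), and SPRY4, at 1.69, was called with slide (0.00779).

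The remaining dual-specificity phosphatases, most of which lack the MAP kinase docking domain, gave 0 calls among 13 tested of 16 genes in the limma fit, and 1 with slide, against the same 1.44% and 2.49%. That gene, DUSP13, above background on 8 of 9 arrays, differed between K57N and WT by 1.33 (adjusted p = 0.419, or 0.00708 with slide). The median difference of the 13 was -0.10. Of the MAP kinases that the phosphatases act on, 0 of 9 tested of 10 were called in any comparison. MAPK3, which encodes ERK1, differed between K57N and WT by -0.27 (adjusted p = 0.925, limma). The tyrosine phosphatases PTPN5, PTPN7 and PTPRR, which also act on ERK, were not above background on all 3 arrays of any line and were not tested.

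**Figure D3:**
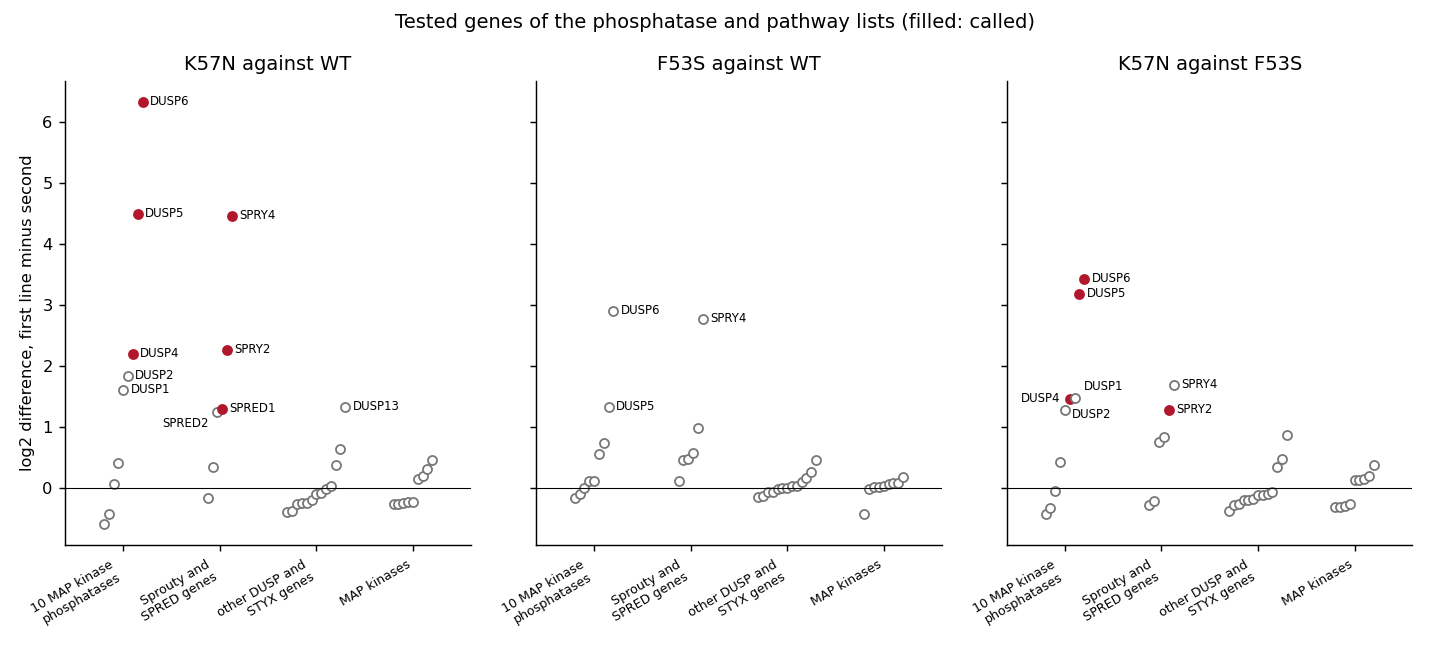
Log2 difference (vertical axis, first line minus second) of each tested gene of the 4 lists named on the horizontal axis, for the 3 comparisons; each circle is the brightest probe of a gene, filled where called. Filled circles are DUSP4, DUSP5 and DUSP6 in both K57N panels, with SPRY2, SPRY4 and SPRED1 against WT and SPRY2 against F53S, while no circle of the MAP kinases is filled.

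The pattern of DUSP6 over the 9 arrays was compared with that of 17064 genes above background on all arrays, after removing each slide's mean. The 9 points share their lines and slides, so the correlations are descriptions. The 5 genes with the highest r were SPRY2 (0.9976), FOSL1 (0.9974), PLK3 (0.9971), BMERB1 (0.9942) and VEGFC (0.9942). FOSL1, a transcription factor of the AP-1 group, read -2.49, -2.42 and -2.31 in WT, -0.90, -1.48 and -1.29 in F53S and 0.82, 0.26 and 0.19 in K57N cells. Without removal of the slide mean SPRY2 still ranked 1 and FOSL1 7 (r = 0.9747), while VEGFC ranked 150 (r = 0.9083), BMERB1 165 (r = 0.9045) and PLK3 1461 (r = 0.6302). Of the members, DUSP4 ranked 12 (r = 0.989), DUSP1 771 (r = 0.898), DUSP10 2439 (r = 0.729) and DUSP9 5872 (r = 0.189), and DUSP8 and DUSP16 ran the other way (r = -0.728 and -0.744). Without removal of the slide mean r was 0.932 for DUSP4, 0.711 for DUSP1, 0.482 for DUSP10, -0.024 for DUSP9, -0.327 for DUSP8 and -0.673 for DUSP16, so DUSP9 changed sign. DUSP2 and DUSP5 were not above background on WT replicate 1 and were not ranked. Measured on the same slide-centred scale, their r with DUSP6 was 0.93 and 0.98.

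**Figure D4:**
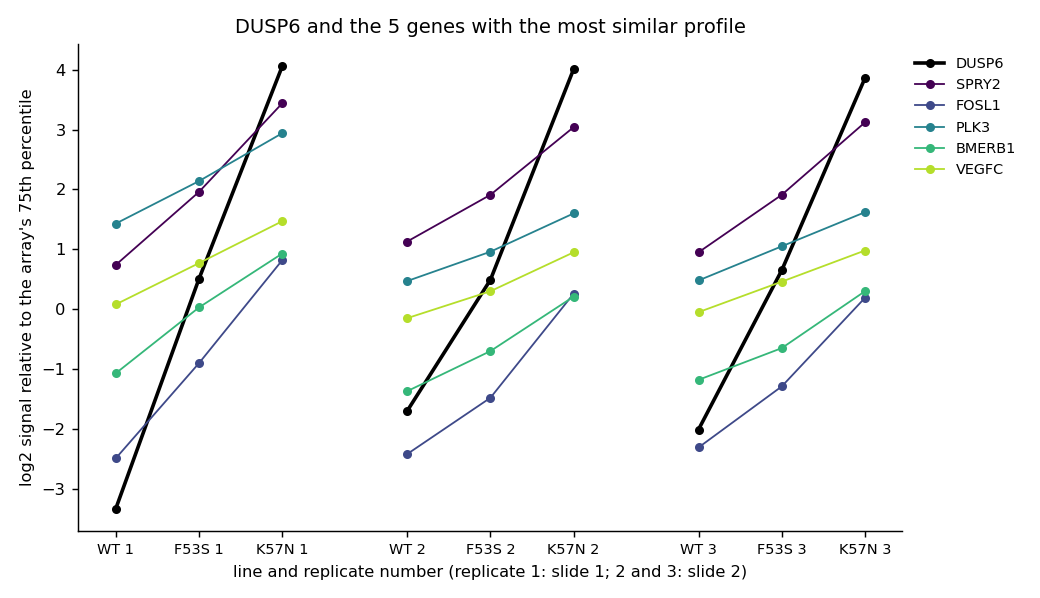
Log2 signal relative to the array's 75th percentile (vertical axis) of DUSP6 and the 5 genes with the most similar profile, on each array, grouped by replicate number (horizontal axis); lines join the 3 cell lines of a number. Every gene climbs from WT over F53S to K57N, DUSP6 with the steepest slope, and PLK3 is higher on the slide 1 arrays of replicate 1.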

How the data were processed

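Total RNA was labelled with Cy3 and hybridised to Agilent SurePrint G3 8x60K v2 arrays. The authors deposited scanner intensities from Feature Extraction 10.10.1.1, per the labels, and a table of log2 values scaled to the 75th percentile. The table was used as an alternative. From gProcessedSignal, log2 intensities were taken minus the 75th percentile of each array's 58716 non-control spots. Outlier spots were left out, and spots of a probe were averaged. The brightest probe stood for a gene. Probes well above background on all 3 arrays of a line (25400 of 50598) entered limma 3.58.1 in R 4.3.3, with a mean per line and Benjamini-Hochberg adjustment over all of them. Values of a probe seen on some arrays of a line depend on the background.

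The rule for named genes took all members, MAP2K1, called genes of the pathway lists, MAPK3 and the 5 genes most like DUSP6. Cell type markers and the untested tyrosine phosphatases are named beside it. Results of some genes on these lists are not reported here. Members and lists were chosen with earlier results of these data known. Same-numbered arrays of different lines deviated together (r 0.34 to 0.87 over 9 pairs), and replicate number 1 is also slide 1, per the file headers. Arrays of different lines and different numbers gave r of -0.80 to 0.65 over 18 pairs. These were positive within slide 2 (0.43 to 0.65) and negative across the slides. The scripts were tested on simulated data. Probe positions are those of the array files (hg19). Array number limits the precision.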

Additional observations from a re-analysis of the deposited data

How the results depend on the processing

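The calls of DUSP5 and DUSP6 in K57N cells held against both other lines under every alternative that tested them, except that the methods' t-test with Benjamini-Hochberg adjustment kept DUSP6 alone, 1 member against WT and 1 against F53S. DUSP2 and DUSP5 could not be tested with the filter for probes above background on all arrays. With that filter DUSP4 also lost its call against F53S (adjusted p = 0.0559, limma), which left 1 member called there, DUSP6. At an unadjusted p under 0.05 and over 2-fold, the methods' t-test gave 4 members against WT, 3 against F53S and 2 for F53S against WT, each higher. Over all 25400 tested probes it gave 553, 417 and 27 higher. Members called higher in K57N than in WT numbered 5 with the slide block, with the replicate block, with the arrays of slide 2 alone and, an alternative chosen after seeing the data, with the slide block and no filter on dim probes, and 5 against F53S with the slide block. Normexp gave 1 member, DUSP6, for F53S against WT. Leaving out each array gave 3 to 4 members for K57N against WT, 2 to 3 for K57N against F53S and 0 to 1 for F53S against WT.

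Over all probes, the K57N calls against WT (367 higher and 166 lower) became 621 and 426 with the replicate block, 632 and 453 with the slide block, and 592 and 304 on slide 2 alone. They became 160 and 50 with normexp, 167 and 29 with no dim filter, and 96 and 28 by the t-test. There were 184 higher with the all-array filter, 106 lower with the 2 lines fitted alone, and 381 lower with slide and no filter. Against F53S (227 and 55) the counts were 441 and 236 with the replicate block, 459 and 251 with the slide block, 422 and 154 on slide 2 alone, 80 and 6 with normexp, 79 and 7 with no filter, 113 and 34 with the all-array filter, 142 and 12 with the 2 lines alone, and 26 and 2 by the t-test, and 173 lower with slide and no filter. F53S against WT (0) gave 1 higher with normexp, 1 with the slide block and 2 on slide 2 alone. Leaving out arrays gave 193 to 431 higher and 53 to 218 lower for K57N against WT, 80 to 237 and 7 to 55 against F53S, and 0 to 3 higher for F53S against WT. The cause of these shifts was not tested.

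Sign changes touched differences that were not called. On slide 2 alone DUSP1 was -0.01 for F53S against WT and DUSP9 was 0.06 for K57N against F53S. With normexp DUSP10 was 0.02 for F53S against WT and DUSP9 was 0 for K57N against F53S. Leaving out arrays, F53S minus WT ranged from -0.18 to 0.29 for DUSP1, -0.12 to 0.10 for DUSP10, -0.67 to 0.36 for DUSP8 and -0.13 to 0.35 for DUSP9. K57N minus WT ranged from -0.81 to 0.03 for DUSP8 and -0.10 to 0.31 for DUSP9, and K57N minus F53S from -0.72 to 0.24 and -0.18 to 0.19. Signal near background limits DUSP2, DUSP5, DUSP7, a dim DUSP8 probe and SPRY4.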
